A study of Mus musculus with 15 samples.

Results

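The CXC chemokine cluster on mouse chromosome 5 encodes small secreted proteins that attract white blood cells to sites of injury. Its members were chosen by name and are Cxcl1, Cxcl2, Cxcl3, Cxcl5, Ppbp, Pf4, Cxcl9, Cxcl10, Cxcl11 and Cxcl13. All 10 of these 10 genes had a value, 1 probe set each, among 13513 named genes in a table of 22206 probe sets. RNA of stromal cells from mouse hearts was measured on Affymetrix arrays, with 5 arrays in each of 3 groups. EpiSC are epicardial stromal cells shed from the surface of hearts 5 days after myocardial infarction. aCF are activated cardiac fibroblasts from the ventricles of hearts at the same 5 days after infarction. CF are cardiac fibroblasts from unstressed hearts with no infarction. All groups came from wild-type C57BL/6 mice of 8 to 12 weeks, and each array is a biological replicate per the series design.

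The way the cells were obtained limits what the groups model. Every heart was perfused with collagenase, and shear in the bath freed the EpiSC, whereas the fibroblasts came from ventricular tissue passed through strainers after the atria were cut away. Cell type and isolation route therefore cannot be told apart between EpiSC and the fibroblast groups. The labels name no sham-operated group and no sorting step. In such bulk samples, fewer cells of a type and less RNA per cell cannot be told apart.

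CXC chemokines act through G protein-coupled receptors on white blood cells. Members with a Glu-Leu-Arg motif before the first cysteines (Cxcl1, Cxcl2, Cxcl3, Cxcl5 and Ppbp) bind Cxcr2 and draw in neutrophils, the first white blood cells to enter an infarct. Cxcl9, Cxcl10 and Cxcl11 are interferon-induced ligands of Cxcr3 on activated T cells and natural killer cells, Cxcl13 is the ligand of Cxcr5 on B cells, and Pf4 is released by platelets. The genes form more than 1 group on the chromosome. By the order of the probe set identifiers, Cxcl5, Ppbp, Pf4, Cxcl3, Cxcl1 and Cxcl2 follow each other, with the lung chemokine Cxcl15 between Cxcl3 and Cxcl1. Cxcl9, Cxcl10 and Cxcl11 stand next to each other in a second stretch, and Cxcl13 lies apart from both.

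The promoters of 7 members are shown because they hold the sequence matches discussed with the array values. Each is the stretch of 250 bases before the annotated gene start on the gene's own strand, 5′ to 3′, from RefSeq on GRCm38.p6, whose table holds 8 of the 10 members. Capitals mark GGANNTTCC, a short form of the κB motif bound by NF-κB, GAAANNGAA, a short form of the interferon response element, or the TATAAA box. The Ppbp stretch is chr5:90768268-90768517 (plus strand), Cxcl1 is chr5:90890995-90891244 (plus), Cxcl2 is chr5:90903649-90903898 (plus), Cxcl3 is chr5:90785851-90786100 (plus), Cxcl9 is chr5:92328080-92328329 (minus), Cxcl10 is chr5:92348890-92349139 (minus) and Cxcl13 is chr5:95956689-95956938 (plus).
Ppbp: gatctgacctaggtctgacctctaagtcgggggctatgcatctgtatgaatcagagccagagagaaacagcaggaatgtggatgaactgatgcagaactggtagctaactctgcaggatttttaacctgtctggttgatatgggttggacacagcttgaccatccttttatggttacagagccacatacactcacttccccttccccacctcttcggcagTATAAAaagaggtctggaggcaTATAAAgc
Cxcl1: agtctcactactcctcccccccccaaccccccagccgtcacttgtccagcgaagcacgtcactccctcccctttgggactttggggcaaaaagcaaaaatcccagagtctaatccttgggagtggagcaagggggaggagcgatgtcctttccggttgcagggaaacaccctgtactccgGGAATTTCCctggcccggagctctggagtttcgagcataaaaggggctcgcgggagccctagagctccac
Cxcl2: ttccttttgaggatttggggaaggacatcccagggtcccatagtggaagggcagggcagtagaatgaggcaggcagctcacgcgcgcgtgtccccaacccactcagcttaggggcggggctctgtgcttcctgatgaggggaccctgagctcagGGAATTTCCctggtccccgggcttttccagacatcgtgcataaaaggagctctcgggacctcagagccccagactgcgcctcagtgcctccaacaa
Cxcl3: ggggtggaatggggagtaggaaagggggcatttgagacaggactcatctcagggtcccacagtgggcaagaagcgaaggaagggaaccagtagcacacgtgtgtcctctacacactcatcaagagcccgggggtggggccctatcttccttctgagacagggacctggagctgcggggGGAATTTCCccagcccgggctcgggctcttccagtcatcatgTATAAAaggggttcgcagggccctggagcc
Cxcl9: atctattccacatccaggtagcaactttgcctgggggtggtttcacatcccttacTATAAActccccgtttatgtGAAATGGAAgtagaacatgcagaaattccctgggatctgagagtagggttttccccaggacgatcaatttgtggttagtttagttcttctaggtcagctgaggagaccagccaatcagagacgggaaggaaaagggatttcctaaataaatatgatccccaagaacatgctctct
Cxcl10: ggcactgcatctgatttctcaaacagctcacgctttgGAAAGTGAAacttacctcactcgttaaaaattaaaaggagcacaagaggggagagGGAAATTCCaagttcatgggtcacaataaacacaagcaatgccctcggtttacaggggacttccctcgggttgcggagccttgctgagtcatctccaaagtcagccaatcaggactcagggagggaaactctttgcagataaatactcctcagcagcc
Cxcl13: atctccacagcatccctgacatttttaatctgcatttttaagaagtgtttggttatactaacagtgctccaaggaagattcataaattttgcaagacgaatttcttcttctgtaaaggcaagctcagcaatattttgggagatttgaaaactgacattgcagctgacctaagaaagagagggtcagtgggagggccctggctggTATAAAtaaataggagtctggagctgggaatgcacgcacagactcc

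The motifs were searched on both strands and were chosen with the sequences already read, so a match is a description and not a bound site. GGANNTTCC stood in 4 of the 8 member promoters, those of Cxcl1, Cxcl2, Cxcl3 and Cxcl10, and in 3.59% of all 32851 promoters of the same length. Counted back from the gene start, the matches began at position -70 in Cxcl1, -96 in Cxcl2, -72 in Cxcl3 and -158 in Cxcl10. In each of these promoters the matches on both strands cover the same letters, GGAATTTCC in Cxcl1, Cxcl2 and Cxcl3 and GGAAATTCC in Cxcl10. GAAANNGAA was found in 2 of the 8, Cxcl9 at position -175 and Cxcl10 at -213, against 7.13% of all promoters. Both motifs are 1 letter shorter than the forms searched first: with the longer forms the κB matches stood in the same 4 promoters, Cxcl9 had no interferon-type match, and smaller shares of all promoters matched. TATAAA was found in Ppbp, Cxcl3, Cxcl9 and Cxcl13, 4 of the 8, against 12.4% of all promoters. Ppbp held it at positions -30 and -8, Cxcl3 at -30, Cxcl13 at -46 and Cxcl9 farther off at -195.

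The deposited values are on a log scale, taken as log2, and centred by the authors so that each probe set has a median of 0 over the 15 arrays. A value of 1 therefore means 1 log2 unit above that gene's own median, and the values do not show which member is most abundant or whether a gene is above background. Gene names rest on a displacement of the table by 6900 rows that was inferred from the data and that no header states. On chromosome 5, with this displacement, 10 cell cycle genes correlated with the 52 cell cycle genes elsewhere at a mean r of 0.411, against at most 0.177 at 40 neighbouring displacements and 0.0624 as deposited. Within-group correlations of whole arrays ran over 0.551 to 0.671 in EpiSC, 0.213 to 0.540 in aCF and 0.743 to 0.845 in CF. Arrays aCF4 and aCF5 stood apart from the other 3 aCF arrays on the first principal component, at 6.35 and 4.48 against -4.51 to -1.65. In EpiSC against aCF, 7 of 12 epicardial or mesothelial genes with a value passed the test used here, all higher, among them the epicardial transcription factor Wt1, which rose by 2.01 ± 0.18 log2 units (SE, n = 5 each, limma, Bonferroni-adjusted p = 0.00884). Wt1 passed in 5 of 10 omissions of a single array, and missed without EpiSC1, aCF1, aCF2, aCF4 or aCF5. Nkain4, Dmkn, Slc9a3r1 and Bnc1 rose there by 3.17, 3.64, 2.41 and 2.36, with the Dmkn call held in 2 of 10 single omissions and the Bnc1 call in 1 of 10, and all but that of Slc9a3r1 lost without aCF4 and aCF5. The epicardial genes Aldh1a2 and Tbx18 differed there by -0.02 and 0.10.

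In EpiSC, Ppbp and Cxcl13 stood several log2 units above both fibroblast groups, Cxcl5 followed a graded order from EpiSC over aCF to CF, and the remaining 7 members differed by less than 1 log2 unit between any groups. Differences were tested with limma over all 22206 probe sets, 2-sided, with Bonferroni adjustment and a threshold of 0.05, as the series design names them. In EpiSC against aCF, 1 of the 10 members passed, Ppbp, against a background of 0.666% of all probe sets in either direction and 0.401% higher in EpiSC. With Benjamini-Hochberg adjustment 4 passed, against 9.61% of all probe sets. In aCF against CF, 0 of 10 passed by limma with Bonferroni adjustment (background 1.53%), with 5 at an unadjusted p under 0.05 (background 31.1%) and 3 after Benjamini-Hochberg adjustment (background 18.1%). In EpiSC against CF, 3 of 10 passed, all higher in EpiSC (background 2.91% in either direction and 1.97% higher), and 6 with Benjamini-Hochberg adjustment (background 32.2%). The comparisons share arrays, so their results are not independent of each other.

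**Figure D1:**
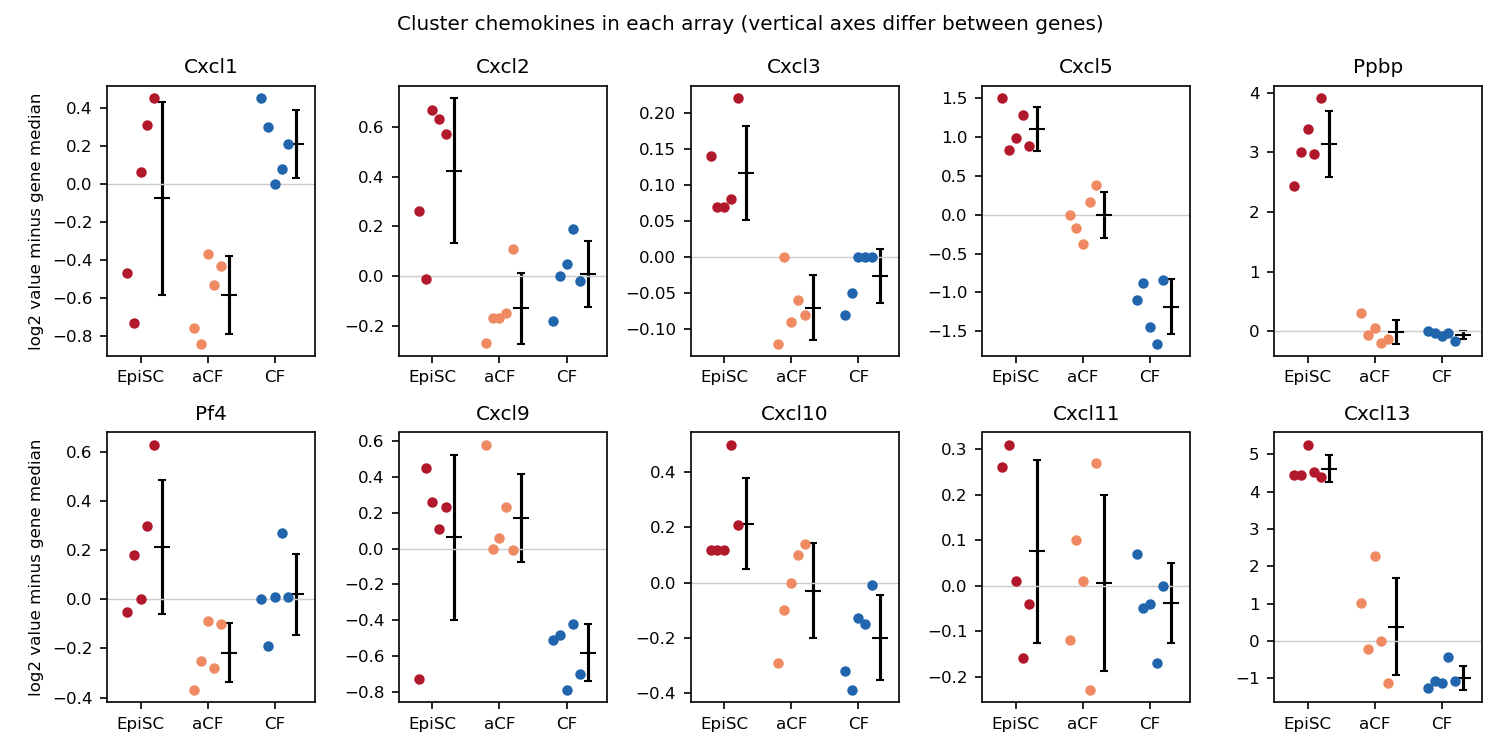
Values of the 10 members in every array, in log2 units relative to each gene's median over 15 arrays, with EpiSC, aCF and CF from left to right and a separate vertical scale for each gene. Points are arrays and the bars are mean ± SD of 5 arrays; Ppbp and Cxcl13 reach 3.91 and 5.26 in EpiSC, while Cxcl3 stays within -0.12 to 0.22.

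Of the neutrophil-attracting members, Ppbp separated EpiSC from the fibroblasts most clearly. Ppbp encodes the precursor of platelet basic protein, also called Cxcl7, which platelets store in granules and which is cut into an active neutrophil attractant. Its probe set, TC0500000842.mm.2, read 2.43, 3.00, 3.40, 2.98 and 3.91 in the 5 EpiSC arrays, against 0.31, -0.07, 0.05, -0.20 and -0.13 in aCF and 0.00, -0.03, -0.08, -0.03 and -0.16 in CF. Every EpiSC array lay more than 2 log2 units above every fibroblast array, whereas aCF and CF overlapped. Ppbp rose by 3.15 ± 0.24 log2 units (SE, n = 5 each), or 8.89-fold, in EpiSC against aCF (limma, Bonferroni-adjusted p = 0.00181) and by 3.20 ± 0.22, or 9.22-fold, in EpiSC against CF (limma, adjusted p = 0.000823). Between aCF and CF it differed by 0.05 ± 0.09. Without aCF4 and aCF5 the difference from aCF was 3.05 and no longer passed (limma, adjusted p = 0.127), and it passed without any single array. With the arrays quantile-normalized again the Ppbp differences were smaller, 5.15-fold over aCF and 5.40-fold over CF, and both passed.

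Cxcl5, which in mice is made largely by epithelial and stromal cells and attracts neutrophils, took a different pattern, with a step at each group. Its values were 1.50, 0.83, 0.99, 1.28 and 0.89 in EpiSC, 0.00, -0.17, -0.38, 0.16 and 0.38 in aCF, and -1.10, -0.88, -1.44, -1.66 and -0.84 in CF. No array of one group overlapped with an array of another. Cxcl5 rose in EpiSC against CF by 2.28 ± 0.18 log2 units (SE, n = 5 each), or 4.86-fold (limma, Bonferroni-adjusted p = 0.00372). The single steps were of similar size, 1.10 ± 0.17 in EpiSC against aCF and 1.18 ± 0.19 in aCF against CF. Neither step passed the Bonferroni threshold (limma, adjusted p = 1 for each), and both passed after Benjamini-Hochberg adjustment (limma, adjusted p = 0.00257 and 0.00153).

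Cxcl1, the mouse counterpart of a human melanoma growth-stimulating chemokine and an early neutrophil attractant, was lowest in aCF. It read -0.47, -0.73, 0.06, 0.31 and 0.45 in EpiSC, -0.76, -0.84, -0.37, -0.53 and -0.43 in aCF, and 0.45, 0.30, 0.00, 0.08 and 0.21 in CF. The aCF and CF arrays did not overlap, while the EpiSC arrays spread over the ranges of both, with EpiSC1 and EpiSC2 among the aCF values. The difference in aCF against CF was -0.79 ± 0.11 (SE, n = 5 each), which did not pass the Bonferroni threshold (limma, adjusted p = 0.686) and did pass after Benjamini-Hochberg adjustment (limma, adjusted p = 0.000926). EpiSC differed from aCF by 0.51 ± 0.22 and from CF by -0.28 ± 0.22.

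Cxcl2, also called macrophage inflammatory protein 2, a neutrophil attractant made by activated macrophages and stromal cells, read 0.26, -0.01, 0.67, 0.63 and 0.57 in EpiSC, -0.27, -0.17, -0.17, -0.15 and 0.11 in aCF, and -0.18, 0.00, 0.05, 0.19 and -0.02 in CF. All but EpiSC2 among the EpiSC arrays lay above every fibroblast array. The differences were 0.55 ± 0.14 in EpiSC against aCF and 0.42 ± 0.13 in EpiSC against CF, and neither passed the Bonferroni threshold (limma, adjusted p = 1 for each). After Benjamini-Hochberg adjustment they stood at an adjusted p of 0.0293 and 0.0364 by limma.

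Cxcl3, a close relative of Cxcl2, varied little. Its EpiSC values were 0.14, 0.07, 0.07, 0.08 and 0.22, against -0.12, 0.00, -0.09, -0.06 and -0.08 in aCF and -0.08, -0.05, 0.00, 0.00 and 0.00 in CF. EpiSC lay above both other groups without overlap, by 0.19 ± 0.06 over aCF and 0.14 ± 0.05 over CF, and neither difference passed (limma, Bonferroni-adjusted p = 1). The SD of Cxcl3 pooled over the 3 groups was 0.0504, at percentile 1.25 of all probe sets and under the median of 0.101 for 1101 olfactory and vomeronasal receptor probe sets, genes not known to work in heart stroma. The centred values do not show whether Cxcl3 was above background.

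Pf4, platelet factor 4, lies beside Ppbp and is stored with it in platelet granules, but its values differed far less between groups. Pf4 read -0.05, 0.18, 0.00, 0.30 and 0.63 in EpiSC, -0.37, -0.25, -0.09, -0.28 and -0.10 in aCF, and 0.00, -0.19, 0.01, 0.27 and 0.01 in CF. EpiSC and aCF did not overlap, and CF overlapped with both. Differences were 0.43 ± 0.13 in EpiSC against aCF, -0.24 ± 0.09 in aCF against CF and 0.19 ± 0.13 in EpiSC against CF, and none passed (limma, Bonferroni-adjusted p = 1 for each).

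**Figure D2:**
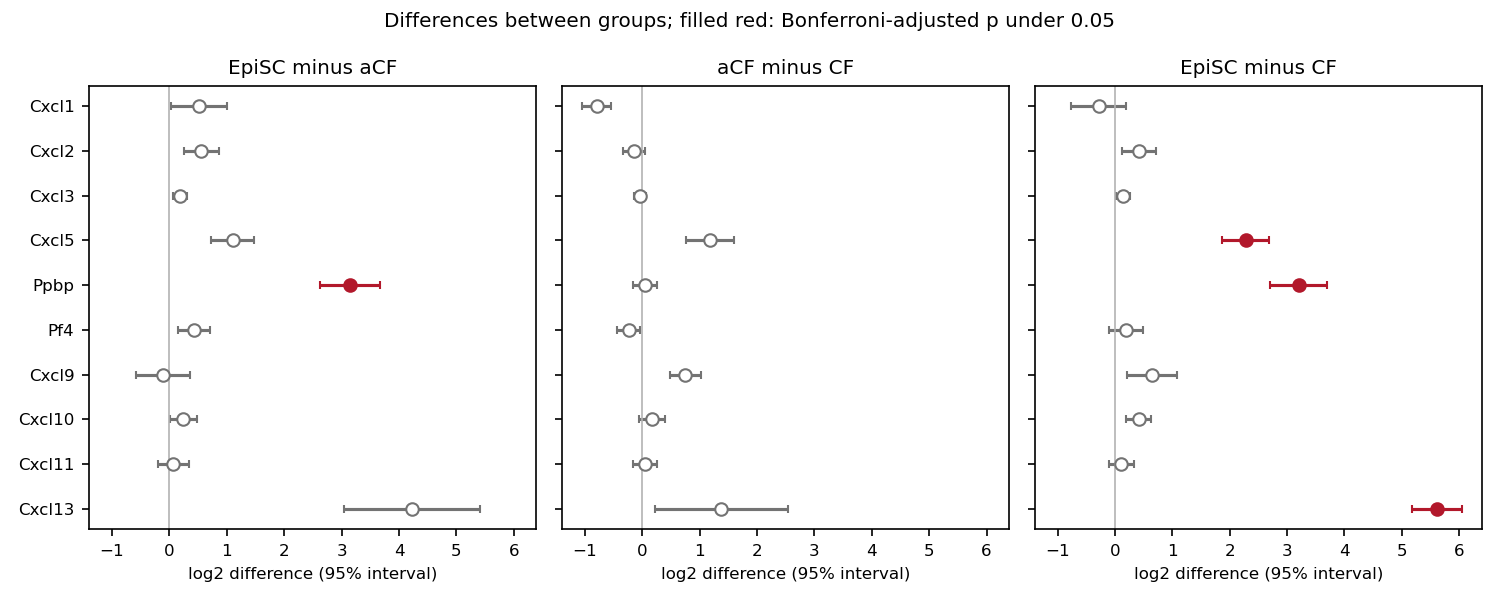
Differences in log2 units between groups for the 10 members, from left to right EpiSC minus aCF, aCF minus CF and EpiSC minus CF, with 95% intervals from limma. Filled red points passed the Bonferroni threshold: Ppbp in EpiSC minus aCF (3.15), and Cxcl13 (5.61), Ppbp (3.20) and Cxcl5 (2.28) in EpiSC minus CF.

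Among the interferon-induced ligands, Cxcl9 was the member with a clear gap between aCF and CF. Cxcl9, also known as the monokine induced by interferon-gamma, read -0.73, 0.45, 0.26, 0.11 and 0.23 in EpiSC, 0.58, 0.00, 0.06, 0.23 and -0.01 in aCF, and -0.51, -0.48, -0.79, -0.42 and -0.70 in CF. All aCF arrays and 4 of the 5 EpiSC arrays lay above every CF array, and EpiSC1 lay within the CF range. The differences were 0.75 ± 0.12 in aCF against CF and 0.64 ± 0.20 in EpiSC against CF, and neither passed the Bonferroni threshold (limma, adjusted p = 1 for each). After Benjamini-Hochberg adjustment they stood at an adjusted p of 0.00190 and 0.0296 by limma. EpiSC differed from aCF by -0.11 ± 0.21, and by 0.09 without EpiSC1.

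Cxcl10, which many cell types make in answer to interferons and NF-κB, read 0.12, 0.12, 0.12, 0.50 and 0.21 in EpiSC, -0.29, -0.10, 0.00, 0.10 and 0.14 in aCF, and -0.32, -0.39, -0.13, -0.15 and -0.01 in CF. EpiSC lay above CF without overlap, and aCF overlapped with both. The differences were 0.41 ± 0.10 in EpiSC against CF, 0.24 ± 0.10 in EpiSC against aCF and 0.17 ± 0.10 in aCF against CF, none of which passed (limma, Bonferroni-adjusted p = 1 for each). The Cxcl10 difference from CF stood at an adjusted p of 0.00943 by limma with Benjamini-Hochberg adjustment.

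Cxcl11, the third Cxcr3 ligand, for which C57BL/6 mice carry a frameshift that leaves them without the protein, read 0.26, 0.31, 0.01, -0.16 and -0.04 in EpiSC, -0.12, 0.10, 0.01, -0.23 and 0.27 in aCF, and 0.07, -0.05, -0.04, -0.17 and 0.00 in CF. All groups overlapped. The differences were 0.07 ± 0.12 in EpiSC against aCF, 0.04 ± 0.09 in aCF against CF and 0.11 ± 0.10 in EpiSC against CF (limma, Bonferroni-adjusted p = 1 for each).

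Cxcl13, the B cell attractant of lymph node follicles and of the lymphoid clusters on mesothelial surfaces, had the widest gap of the 10 members between EpiSC and CF. Its probe set, TC0500000922.mm.2, read 4.45, 4.45, 5.26, 4.53 and 4.39 in EpiSC, 1.03, -0.22, 2.27, 0.00 and -1.13 in aCF, and -1.26, -1.07, -1.12, -0.43 and -1.07 in CF. Every EpiSC array lay above every aCF array, and the aCF arrays spread from the CF range up to the 2.27 of aCF3. Cxcl13 rose in EpiSC against CF by 5.61 ± 0.20 log2 units (SE, n = 5 each), or 48.7-fold (limma, Bonferroni-adjusted p = 8.5e-07), and by 19.9-fold with the arrays quantile-normalized again (limma, adjusted p = 3.405e-07). EpiSC differed from aCF by 4.23 ± 0.54, or 18.7-fold, which did not pass (limma, Bonferroni-adjusted p = 0.257) but did after Benjamini-Hochberg adjustment (limma, adjusted p = 0.000928). Between aCF and CF the difference was 1.38 ± 0.53 (limma, Bonferroni-adjusted p = 1).

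The call for Cxcl13 in EpiSC against aCF changed with the arrays and the fit used. Without aCF3 the difference was 4.70 and passed (limma, Bonferroni-adjusted p = 0.0102), as it did in a single limma fit of all 3 groups (Bonferroni-adjusted p = 0.00549), and with the arrays quantile-normalized again it was 2.74 and did not pass (adjusted p = 1). The Cxcl13 difference in aCF against CF was 0.91 without aCF3 and 1.76 without aCF5. The SD of Cxcl13 pooled over the 3 groups was 0.802, at percentile 99.2 of all probe sets, with an SD of 1.30 in aCF against 0.36 in EpiSC and 0.32 in CF. Within aCF, the mean of the 12 epicardial and mesothelial markers was also highest in aCF3 at 0.213 and lowest in aCF5 at -0.519, and its range over arrays was 1.55 to 2.30 in EpiSC and -0.803 to -0.206 in CF. Its part in the Cxcl13 and Ppbp differences was not tested.

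Without regard to the test, 5 of the 10 members had every EpiSC array above every aCF array and 0 had every EpiSC array below, against 5.18% of all probe sets with EpiSC above aCF. The 5 were Cxcl3, Cxcl5, Ppbp, Pf4 and Cxcl13. Between aCF and CF, Cxcl5 and Cxcl9 were higher and Cxcl1 lower without overlap, 3 of 10 against 14.7% of all probe sets. Between EpiSC and CF, Cxcl3, Cxcl5, Ppbp, Cxcl10 and Cxcl13 were higher without overlap, 5 of 10 against 11.6%. The median member difference was 0.47 in EpiSC against aCF, 0.05 in aCF against CF and 0.42 in EpiSC against CF, while the median over all probe sets was 0.01, -0.02 and -0.01.

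The members did not vary as 1 block among arrays of the same group. Over the 15 arrays, with each value taken as its deviation from the group mean, 4 of the 45 member pairs had an r over 0.5 and 1 pair had an r under -0.5, and the median r was 0.0572. The highest were Ppbp with Cxcl9 at 0.66 and Cxcl1 with Cxcl2 at 0.65. EpiSC1 was the lowest EpiSC array for both Ppbp (2.43) and Cxcl9 (-0.73), and the r without that array was not calculated. Cxcl1 and Cxcl2 are neighbours and share the GGAATTTCC run. Cxcl3, which holds the same run, had an r of 0.08 with Cxcl1 and 0.25 with Cxcl2. Its SD pooled over the 3 groups was 0.0504, at percentile 1.25 of all probe sets, which limits what its r can show. Cxcl5 and Cxcl13 had the lowest r of all pairs, at -0.54. These are descriptions over arrays that all members share.

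**Figure D3:**
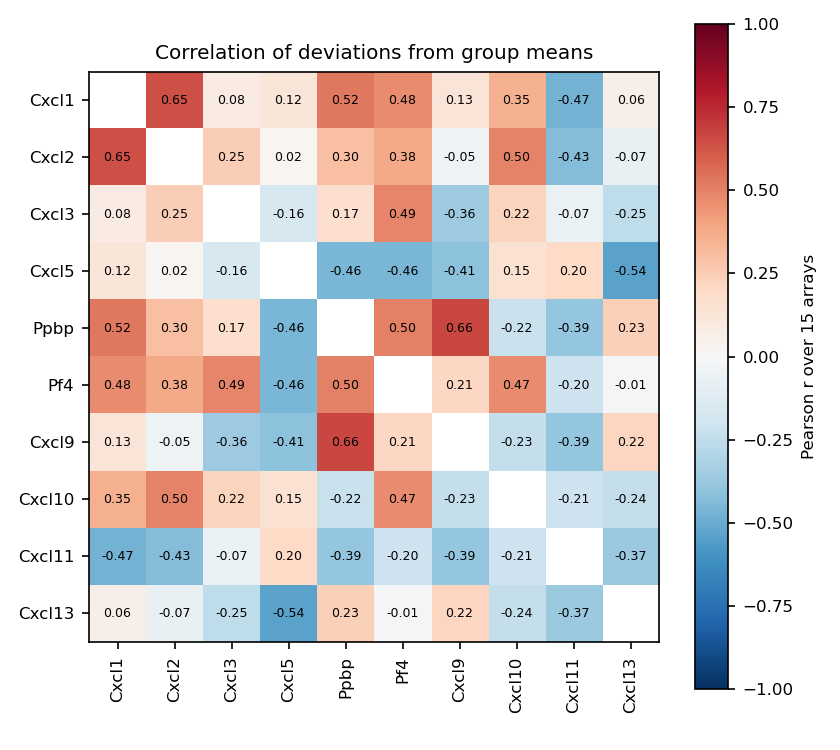
Pearson r between members over 15 arrays after subtracting each group's mean, with both axes listing the 10 members and colour giving r from -1 to 1. Cxcl1 with Cxcl2 (0.65) and Ppbp with Cxcl9 (0.66) are the strongest positive pairs, and Cxcl5 with Cxcl13 (-0.54) the strongest negative one. EpiSC1 is the lowest EpiSC array for both Ppbp and Cxcl9.

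The 3 named genes with the most similar profile were taken for each member by Pearson r over the 15 arrays, which includes the differences between groups. Cxcl13 was most like Lcn2 (r = 0.985), which encodes the iron-scavenging protein lipocalin 2, Saa3 (0.984), an acute-phase serum amyloid, and F11r (0.974), a tight junction protein. Within groups the correlations of Cxcl13 with Lcn2, Saa3 and F11r were 0.82, 0.87 and 0.66, and all 3 genes also peaked in aCF3 among the aCF arrays. Ppbp was most like Sbsn (r = 0.985), the epithelial protein suprabasin, Pdlim4 (0.971) and Tspan8 (0.969), a tetraspanin of epithelia, with within-group r of 0.62, 0.15 and 0.53. With Pf4, Ppbp had a within-group r of 0.50, and both read highest in EpiSC5, as did the mean of the platelet markers. Among the other EpiSC arrays the order was shared only in part. In EpiSC1, where Ppbp was lowest at 2.43, Pf4 was also lowest, at -0.05. The platelet mean there was 0.556 with the marker Selp, which read 2.31 in that array. Without Selp, left out after its values were seen, the mean was 0.361, the lowest of the EpiSC arrays. In EpiSC3 the platelet mean was 0.398, while Ppbp read 3.40 and Pf4 0.00.

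Cxcl1 was most like Junb (r = 0.905), Zfp36 (0.900) and Ier2 (0.899), immediate-early genes that cells switch on within minutes of stimulation or tissue handling. Within groups these correlations were 0.89, 0.80 and 0.85. EpiSC1 and EpiSC2 were the lowest EpiSC arrays for all 4 genes. What the immediate-early genes contribute to the Cxcl1 values was not tested. Pf4 was most like Gp6 (r = 0.894), the collagen receptor of platelets, Aif1l (0.856) and Nfkbid (0.838), with a within-group r of 0.82 for Gp6. Both Pf4 and Gp6 were highest in EpiSC5, where Gp6 read 1.54.

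**Figure D4:**
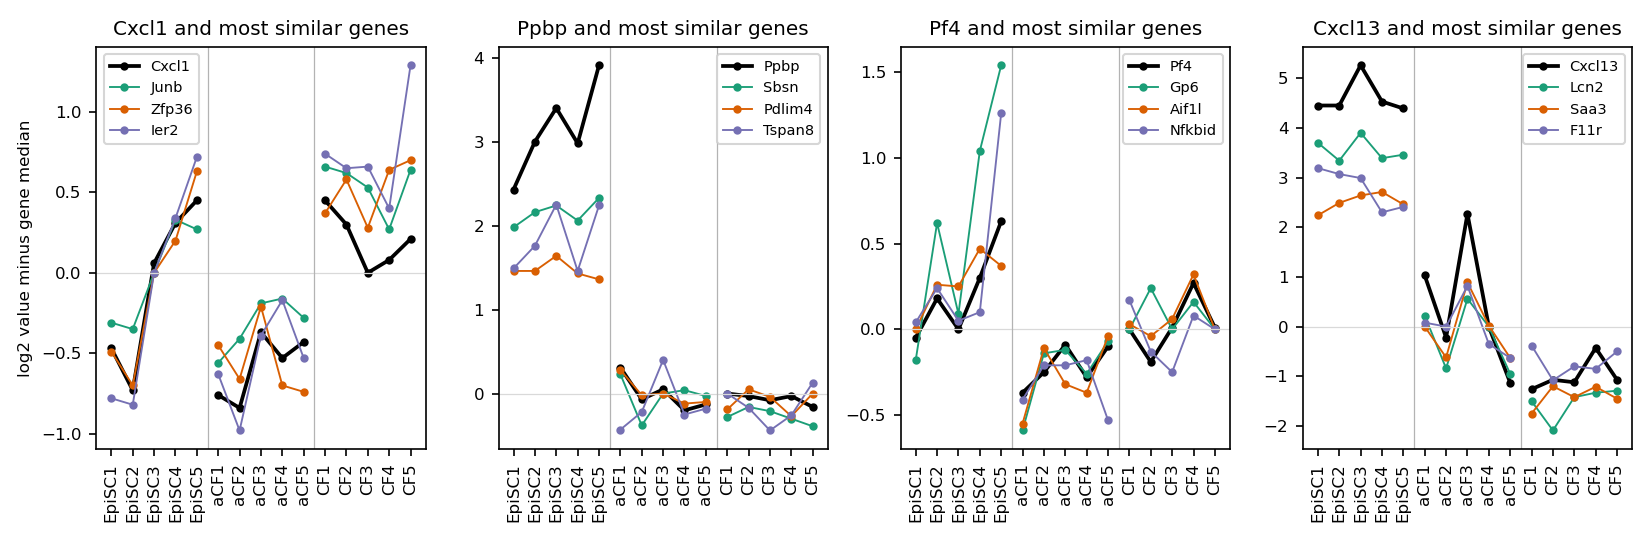
Profiles of Cxcl1, Ppbp, Pf4 and Cxcl13 (black) and the 3 named genes most correlated with each over 15 arrays, with arrays along the horizontal axis (EpiSC, aCF, CF) and log2 value relative to the gene median on the vertical axis. Among the EpiSC arrays, Cxcl1 (-0.73), Junb, Zfp36 and Ier2 are all lowest in EpiSC2. Cxcl1 (0.45), Zfp36 and Ier2 are highest in EpiSC5, and Junb in EpiSC4 (0.33). Among the aCF arrays, Cxcl13, Lcn2, Saa3 and F11r share a peak in aCF3.

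The most similar genes of the other members fell into no common class. They were Hmgb2 (r = 0.967), a chromatin protein of dividing cells, Mrpl17 and Anp32b for Cxcl5, and Fam160a1 (0.901), Il1rl2 and Tceanc for Cxcl9. Defb22 (0.912), Mrps26 and Bank1 were most like Cxcl2, and Nsfl1c (0.940), Mpzl3 and the olfactory receptor Olfr1220 were most like Cxcl3. Psmb6, a proteasome subunit, Psmg3 and Gm10354 (0.915) were most like Cxcl10, and A230020J21Rik (0.819), Tcf3 and Snorc were most like Cxcl11.

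Of the receptors of these ligands, the atypical ones, which take up chemokines without signalling through G proteins, gave the largest differences in aCF against CF. All 8 listed receptors had a value. Cxcr2, the receptor of the neutrophil-attracting members, differed by 0.11 ± 0.10 in EpiSC against aCF and by -0.14 ± 0.07 in aCF against CF. Cxcr3 differed by 0.06 ± 0.07 and -0.11 ± 0.06, and Cxcr5, the Cxcl13 receptor, by 0.05 ± 0.10 and -0.17 ± 0.06, in the same comparisons. Ackr3, a scavenger of Cxcl11 and Cxcl12, fell by 1.44 ± 0.10 log2 units in aCF against CF (SE, n = 5 each, limma, Bonferroni-adjusted p = 0.000507), with means of -0.56 in aCF and 0.88 in CF. Ackr1, a scavenger on venules and red cells that binds the neutrophil-attracting members, averaged -0.41 in aCF and 0.59 in CF, a difference short of the threshold (limma, Bonferroni-adjusted p = 0.0707). In all, 0 of 8 receptors passed in EpiSC against aCF, 1 fell in aCF against CF, and 0 passed in EpiSC against CF. Cxcr6 differed by 0.03 ± 0.19 in EpiSC against aCF, by -0.52 ± 0.19 in aCF against CF and by -0.49 ± 0.14 in EpiSC against CF. Ackr1 and Ackr3 differed by 0.45 and 0.48 in EpiSC against aCF, Cxcr1 by -0.08 and Cxcr4 by -0.03.

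CXC ligands encoded outside the cluster, or in it but not among the members, showed no call. Of 5 listed, 3 had a value, and 0 of 3 passed in any comparison. Cxcl12, the Cxcr4 ligand of stromal cells, differed by -0.13 ± 0.19 in EpiSC against aCF and 0.28 ± 0.12 in aCF against CF. Cxcl15, which lies inside the stretch that holds Cxcl1 to Cxcl3, differed by -0.02 ± 0.11 and -0.13 ± 0.08. Cxcl17, a mucosal chemokine, differed by 0.14 ± 0.10 and -0.07 ± 0.06.

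NF-κB is activated by interleukin-1 and tumour necrosis factor and switches on many of the cluster's genes. Of 27 measured genes of that route, 2 rose in EpiSC against aCF and 0 fell, against 0.401% of all probe sets higher. Lcn2 rose by 3.76 ± 0.28 (limma, Bonferroni-adjusted p = 0.00188), and Zc3h12a, which encodes Regnase-1, a nuclease that destroys chemokine and cytokine transcripts, rose by 1.38 ± 0.14 (limma, adjusted p = 0.0433). Lcn2 missed the threshold after repeated quantile normalization (limma, adjusted p = 0.1), and Zc3h12a passed in 1 of 10 omissions of a single array, that of EpiSC1. Tnfaip3, the A20 brake on NF-κB, differed by 1.28 ± 0.16 (limma, Bonferroni-adjusted p = 0.268), Ptgs2 by 1.04 and Relb by 0.43. Il6 alone of the 27 passed in aCF against CF, with a rise of 2.91 ± 0.16 (limma, Bonferroni-adjusted p = 6.61e-05), while Zc3h12a differed by -0.86 ± 0.10 and Zfp36, whose protein marks Cxcl1-type transcripts for decay, by -1.07 ± 0.12, Icam1 by -0.59 and Irak3 by -0.48. In EpiSC against CF, Lcn2 rose by 5.08 ± 0.16 and Il6 by 3.22 ± 0.33, 2 of 27, the Il6 call holding in 2 of 10 single omissions, those of EpiSC3 and EpiSC4. The list median in EpiSC against aCF was 0.20, against 0.01 over all probe sets. With Benjamini-Hochberg adjustment 6 of the 27 were higher and 0 lower there (background 9.61%). The counts were 2 higher and 6 lower in aCF against CF (background 18.1%). They were 11 higher and 3 lower in EpiSC against CF (background 32.2%).

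The interferon route, which governs Cxcl9, Cxcl10 and Cxcl11, had 23 of 42 listed genes measured. In EpiSC against aCF, 0 rose by limma with Bonferroni adjustment and 1 fell, the interferon-gamma receptor gene Ifngr1, by 0.83 ± 0.08 (limma, Bonferroni-adjusted p = 0.0162). That call held in 3 of 10 single omissions, those of EpiSC5, aCF2 and aCF3. With Benjamini-Hochberg adjustment 8 were higher in EpiSC and 1 lower (background 9.61% in either direction). Without overlap 8 were higher and 2 lower, against 1151 higher and 1050 lower of all 22206 probe sets. Short of the Bonferroni threshold were the antiviral genes Oas2 at 1.77 ± 0.22, Oas1a at 1.15, Irf7 at 1.08 and Oasl2 at 0.67, all higher in EpiSC. The list median was 0.15, against 0.01 over all probe sets. In aCF against CF, 2 rose and 0 fell: the antiviral regulator Irf7 by 1.22 ± 0.11 (limma, Bonferroni-adjusted p = 0.00682) and the ubiquitin-like Isg15 by 1.07 ± 0.07 (limma, adjusted p = 0.000251). The Irf7 call was lost without aCF4 and aCF5. In EpiSC against CF, Irf7, Isg15, Oas1a and Bst2 rose and Ifngr1 fell, 5 of 23, with the Bst2 call held in 0 of 10 single omissions. With Benjamini-Hochberg adjustment 12 of the 23 were higher and 5 lower there (background 32.2%). The counts in aCF against CF were 6 higher and 4 lower (background 18.1%). Irf1, a factor that activates Cxcl9 and Cxcl10, differed by -0.08 ± 0.12 in EpiSC against aCF and by -0.58 ± 0.10 in aCF against CF.

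Enzymes that trim CXC chemokines gave 0 calls among 5 measured of 7. Dpp4, a surface protease that cuts Cxcl9, Cxcl10 and Cxcl11 to weaker forms, differed by 0.72 ± 0.24 in EpiSC against aCF and by -1.41 ± 0.23 in aCF against CF (limma, Bonferroni-adjusted p = 1 for each). Mmp9, which cuts several neutrophil-attracting members, differed by 0.36 ± 0.12 and 0.44 ± 0.11, Mmp8 by 0.54 ± 0.31 and 0.46 ± 0.10, and Mmp12 by -0.61 ± 0.31 and 0.74 ± 0.30. Mmp2, which cuts Cxcl12, went the other way from Mmp8 and Mmp9, by -0.47 ± 0.08 in EpiSC against aCF, -0.15 ± 0.04 in aCF against CF and -0.63 ± 0.07 in EpiSC against CF, without overlap in each.

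Markers of blood cells that make or follow these chemokines moved with some of the values. The mean over 10 measured platelet and megakaryocyte markers was 0.354 to 0.830 in EpiSC, -0.138 to 0.030 in aCF and -0.421 to -0.248 in CF, highest in EpiSC as Ppbp was. Without Selp, left out after its values were seen, the other 9 gave 0.361 to 0.841 in EpiSC, -0.188 to 0.030 in aCF and -0.086 to 0.006 in CF, so that aCF and CF overlapped. Without Selp, 0 of the 9 had a lower mean in EpiSC than in aCF. Of the 10, 0 passed in EpiSC against aCF by limma with Bonferroni adjustment. With Benjamini-Hochberg adjustment 3 were higher there and 0 lower (background 9.61% in either direction). The EpiSC arrays lay above all aCF arrays in 3, Clec1b, Itgb3 and Nrgn, against 5.18% of all probe sets. Clec1b, the podoplanin receptor of platelets, differed by 2.02 ± 0.35 (limma, Bonferroni-adjusted p = 1), Gp6 by 0.86 ± 0.29, Itgb3 by 0.86 ± 0.15, Nrgn by 0.47 ± 0.08, Gfi1b by 0.15 and Gp9, a subunit of the platelet von Willebrand factor receptor, by 0.01 ± 0.10. Selp, P-selectin of platelets and endothelium, rose in aCF against CF by 2.88 ± 0.23 (limma, Bonferroni-adjusted p = 0.00221), 1 of 10, and missed the threshold in the fit of all 3 groups and without aCF4 and aCF5. The part of platelet RNA in the Ppbp and Pf4 values was not tested.

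The mean over 15 measured neutrophil markers was 0.289 to 0.399 in EpiSC, -0.078 to 0.013 in aCF and -0.239 to -0.137 in CF. Without Lcn2, left out after its values were seen, the other 14 gave 0.071 to 0.171 in EpiSC, -0.063 to 0.033 in aCF and -0.161 to -0.055 in CF, and 5 of the 14 had a lower mean in EpiSC than in aCF, Clec4d by -0.20 and S100a8 among them. Lcn2, which also stands in the NF-κB list, was the 1 marker of 15 that rose in EpiSC against aCF. S100a9, one of the most abundant proteins of neutrophils, differed by 0.23 ± 0.10 there, Il1r2 by 0.61 ± 0.17 and Clec4e by 0.11. Averaged over 19 markers, macrophage and monocyte genes were highest in aCF. The mean was -0.077 to 0.042 in EpiSC, 0.111 to 0.308 in aCF and -0.221 to -0.055 in CF. Of the 19, Ptprc, Cd163, Fcgr3, Lyve1 and Folr2 averaged higher in EpiSC than in aCF, and the rest averaged lower. Ctss, a lysosomal protease of macrophages, rose in aCF against CF by 1.00 ± 0.08 (limma, Bonferroni-adjusted p = 0.00213), the 1 call of 19, which was lost in a trended and robust fit. In EpiSC against aCF, 0 of the 19 passed by limma with Bonferroni adjustment. With Benjamini-Hochberg adjustment 7 were lower there and 0 higher (background 9.61% in either direction). The macrophage genes Lyz2, C1qa, Laptm5 and C1qb differed there by -0.87, -1.11, -0.76 and -0.26, and in aCF against CF by 1.03, 0.81, 0.71 and 0.29. The Fc receptor gene Fcgr3 differed by 0.45 and 0.99. B and T cell markers had means over 8 genes of -0.009 to 0.110 in EpiSC, -0.098 to 0.045 in aCF and -0.101 to 0.020 in CF, and 0 of 8 passed in any comparison. Because values are centred on each gene's median, they do not show whether a defining marker was absent, and the part of these cells in the chemokine values was not tested.

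Markers of other cells of the heart also moved with the groups. The mean over 12 fibroblast genes was -0.302 to -0.066 in EpiSC, 0.134 to 0.160 in aCF and -0.283 to -0.215 in CF. By limma with Bonferroni adjustment 0 of the 12 passed in EpiSC against aCF, 4 rose in aCF against CF and 3 rose in EpiSC against CF. With Benjamini-Hochberg adjustment 8 were lower in EpiSC than in aCF and 0 higher (background 9.61% in either direction). Set against CF with that adjustment, 5 were higher in EpiSC and 5 lower (background 32.2% in either direction). The list median in EpiSC against CF was -0.13. Over 9 pericyte and smooth muscle genes the mean was -0.764 to -0.274 in EpiSC, 0.339 to 0.770 in aCF and -0.869 to -0.212 in CF. Of these, 1 rose and 2 fell in EpiSC against aCF, 2 rose in aCF against CF and 3 rose in EpiSC against CF. After Benjamini-Hochberg adjustment 6 were lower in EpiSC than in aCF and 1 higher (background 9.61% in either direction). Set against CF with that adjustment, 3 were higher in EpiSC and 5 lower (background 32.2% in either direction). The list median in EpiSC against CF was -0.89. Over 10 endothelial genes the mean was -0.735 to -0.568 in EpiSC, -0.147 to 0.423 in aCF and 0.204 to 0.559 in CF, and 1 fell in EpiSC against aCF, 0 passed in aCF against CF and 1 fell in EpiSC against CF. Over 9 heart muscle genes the mean was -0.958 to -0.529 in EpiSC, -0.676 to 0.404 in aCF and 0.262 to 0.534 in CF, and 0, 0 and 3 fell in the same comparisons, with none higher. After Benjamini-Hochberg adjustment 4 endothelial and 2 heart muscle genes were lower in EpiSC than in aCF, with none higher (background 9.61%). Set against CF, 7 endothelial genes were lower in EpiSC and 1 higher, and 7 heart muscle genes were lower and 0 higher (background 32.2%). In aCF against CF, 2 endothelial genes were lower and 1 higher, and 1 heart muscle gene was lower (background 18.1%). The part of these cells in the chemokine values was not tested.

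**Figure D5:**
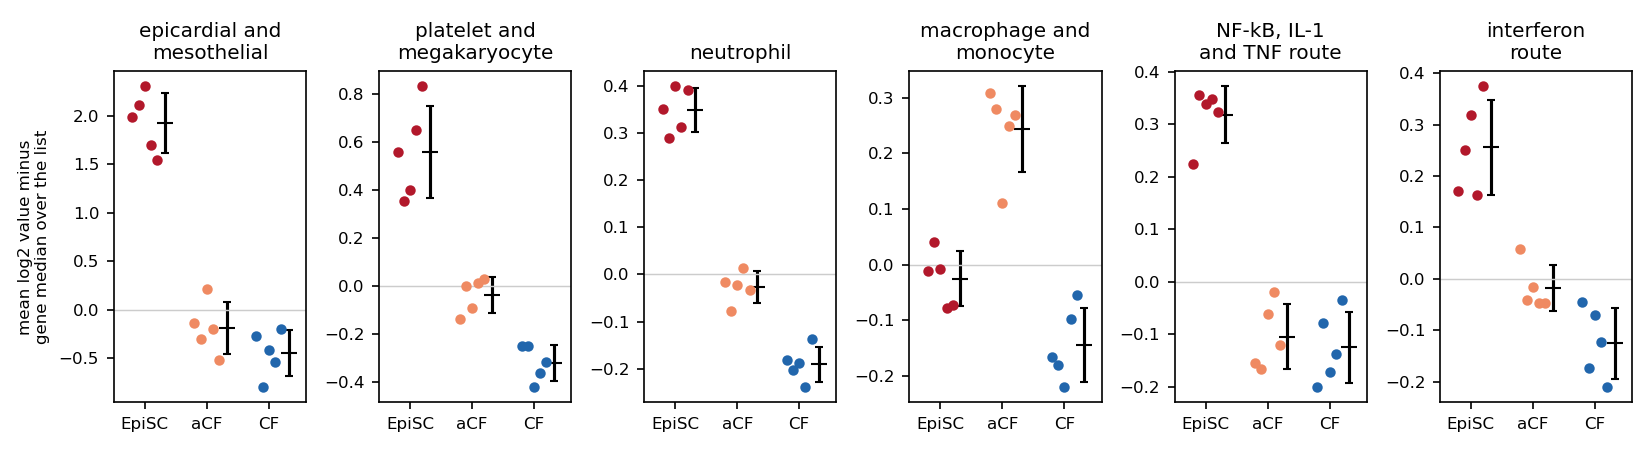
Mean log2 value relative to the gene median over each list of measured genes, per array, for EpiSC, aCF and CF from left to right, with a separate vertical scale for each list. Points are arrays and bars are mean ± SD of 5 arrays; the epicardial list reaches 1.55 to 2.30 in EpiSC, the platelet list 0.354 to 0.830, and the macrophage list is highest in aCF at 0.111 to 0.308.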

How the data were processed

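Affymetrix arrays measured RNA of EpiSC, aCF and CF, 5 arrays each, from 1 ng of amplified, biotin-labelled material, per the labels' protocols. The deposited values are on the log2 scale and were made by the authors in GeneSpring GX 12.5, per the series design text, by quantile normalization of probe signals, exon-level RMA summary and centring on the median of all samples. The base of the logarithm is inferred from that method and from the range of -4.77 to 5.52. Centring removes the level of each probe set, so the authors' filter on raw signal could not be repeated and all 22206 rows were tested. Values were paired with identifiers after a displacement of 6900 rows (3 more for chromosomes 10 and 11), inferred and not stated by any header; it gave 15303 paired rows, 13538 of them named by GEO's platform annotation. The 4 interferon genes on chromosome 5 also correlated with the other 19 best at this displacement, at a mean r of 0.402, against at most 0.203 at 40 others.

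limma 3.58.1 in R 4.3.3 was fitted to the 2 groups of each comparison, with Bonferroni adjustment and a threshold of 0.05. The fit was tested on simulated data. Alternatives were Benjamini-Hochberg adjustment, 1 fit of all groups, repeated quantile normalization, a trended and robust fit, paired rows only, a replicate block, and omission of arrays. All members are named, every receptor and CXC ligand, up to 5 genes with the smallest p in EpiSC against aCF and in aCF against CF from most other lists, and the 3 most similar genes of each member. The B and T cell, endothelial, pericyte, heart muscle and fibroblast lists are given by counts and means alone, and the marker means without Selp and without Lcn2 were added after seeing the data. Members and lists were chosen with earlier results of these data known. The precision is limited by the number of arrays, and no 2 arrays shared more than 2.45% of their values. Replicate numbers are not said to mark a shared heart and were not treated as pairs.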

Additional observations from a re-analysis of the deposited data

Results flagged for a closer look

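In each member and group, the highest or lowest of the 5 arrays was called far from the others when its gap to the nearest value exceeded 0.71 of the group's range. Of 30 sets checked, 4 had such an array, and chance alone gives about 1 in 20. In EpiSC, Cxcl9 read -0.73 in EpiSC1, with a gap of 0.712 of the range, and the other 4 arrays read up to 0.45. Without EpiSC1 the Cxcl9 difference in EpiSC against CF was 0.84, against 0.64 with it, and neither passed by limma with Bonferroni adjustment (adjusted p = 0.250 and 1). Cxcl10 read 0.50 in EpiSC4, with a gap of 0.763 of the range, and its difference in EpiSC against CF was 0.34 without that array. Cxcl13 read 5.26 in EpiSC3, with a gap of 0.839 of the range, and its rise in EpiSC against CF was 5.45 without it (limma, Bonferroni-adjusted p = 5.294e-07). In CF, Cxcl13 read -0.43 in CF4, with a gap of 0.771 of the range, and the rise was 5.75 without that array (limma, Bonferroni-adjusted p = 1.274e-06).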

How the results depend on the processing

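Of the members, 1 passed in EpiSC against aCF, 0 in aCF against CF and 3 in EpiSC against CF. With Benjamini-Hochberg adjustment these counts were 4, 3 and 6. In 1 fit of all 3 groups, 2 passed in EpiSC against aCF. Without aCF4 and aCF5 together, 0 passed there. Leaving out each array in turn gave 1 to 2, 0 to 0 and 3 to 3. Of the results for other listed genes named here, 15 lost the call with the replicate block, 4 with repeated quantile normalization and 4 with the trended and robust fit, and 8 without aCF4 and aCF5. All 30 member results kept their direction and side of the threshold under repeated quantile normalization, the trended and robust fit and the paired rows alone, but repeated quantile normalization lowered the Ppbp and Cxcl13 folds of EpiSC over CF to 5.40 and 19.9.

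Over all probe sets, 148 passed in EpiSC against aCF, 340 in aCF against CF and 647 in EpiSC against CF, and with Benjamini-Hochberg adjustment 2135, 4023 and 7157. The fit of all 3 groups gave 369 in EpiSC against aCF and 1060 in EpiSC against CF. The trended and robust fit gave 97 in EpiSC against aCF and 212 in aCF against CF. Without aCF4 and aCF5 these were 50 and 144. Leaving out single arrays gave 73 to 143, 197 to 272 and 369 to 557.

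With the replicate number as a block, members past the threshold were 0 in EpiSC against aCF and 1 in EpiSC against CF, and probe sets were 41, 94 and 166 in the order above. Under the block, Ppbp stood at an adjusted p of 0.253 and 0.105 and Cxcl5 in EpiSC against CF at 0.436, by limma with Bonferroni adjustment, while Cxcl13 passed in EpiSC against CF. Deviations of same-numbered arrays correlated at 0.019 to 0.154 between EpiSC and aCF, where 4 of 5 arrays correlated best with their own number, at -0.009 to 0.156 between aCF and CF (1 of 5) and at -0.022 to 0.040 between EpiSC and CF (1 of 5).

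Signs turned for differences near 0, none past the threshold, and the cause was not tested. Without aCF4 and aCF5 these were Cxcl12 at 0.0347 and Cxcr6 at -0.23 in EpiSC against aCF, and Il1r2 at -0.12 in aCF against CF. Repeated quantile normalization turned Bnc1 in aCF against CF to 0.0164 and, in EpiSC against CF, Cxcr1 to 0.0037, Cxcr2 to 0.0002 and Laptm5 to 0.0779. Over single omissions in EpiSC against aCF, Cxcl9 ran from -0.2045 to 0.0905, Cxcl15 from -0.093 to 0.0425, Cxcr4 from -0.104 to 0.071, Cxcr5 from -0.0135 to 0.109, Cxcr6 from -0.0805 to 0.1495, Icam1 from -0.0185 to 0.0665, Irf1 from -0.1515 to 0.0085, Gp9 from -0.0525 to 0.075, Aldh1a2 from -0.119 to 0.0985 and Tbx18 from -0.0105 to 0.1945. Over those in aCF against CF, Ppbp ran from -0.0275 to 0.1, Cxcl11 from -0.022 to 0.103, S100a9 from -0.131 to 0.0045, Il1r2 from -0.13 to 0.1225, Bnc1 from -0.1035 to 0.054 and Nkain4 from -0.0865 to 0.235. Over those in EpiSC against CF, Cxcr1 ran from -0.0665 to 0.021, Cxcr2 from -0.119 to 0.026, Gfi1b from -0.029 to 0.063, C1qb from -0.006 to 0.063 and Laptm5 from -0.155 to 0.0515.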
